A study of Saccharomyces cerevisiae with 27 samples.

Results

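Sterol uptake, sterol esterification and the regulators that sense sterols were examined in budding yeast through 10 genes, picked by name from the 6709 genes of the authors' deposited table. They are the transcription factor genes UPC2, ECM22 and SUT1, the sterol importer genes AUS1 and PDR11, the sterol acyltransferase genes ARE1 and ARE2, and the steryl ester hydrolase genes YEH1, YEH2 and TGL1. All 10 were found, each with a value in all 5 comparisons of the series. The study sequenced poly-A RNA from 27 libraries in 9 groups of 3, grown in CSM medium, all labelled as S288C. In the genotype POLE1::PMET3 integration, the OLE1 gene for the fatty acid desaturase stands under the methionine-repressed MET3 promoter, and OLE1met250 was compared with OLE1met0. In pCM188-SPT23p90 and pCM188-MGA2p90, a plasmid under doxycycline control carries the processed fragment of SPT23 or MGA2, activators of OLE1, and cells without the drug (spt23p90, mga2p90) were compared with cells given it (spt23p90-dox, mga2p90-dox). In the background strain BY4742, ArgonST (90 min of growth under argon) and ArgonLT (growth in a microfermenter, labelled as long-term hypoxia) were each compared with the same aerobic BY libraries.

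Sterol synthesis in yeast consumes oxygen, and cells without oxygen must take sterol up from the medium. The activators Upc2 and Ecm22 turn on sterol genes when ergosterol is scarce, and sterol bound to Upc2 holds it out of the nucleus. The ABC transporters Aus1 and Pdr11 bring sterol in through the plasma membrane. Free sterol is stored in lipid droplets as steryl ester, made by Are1 and Are2 in the endoplasmic reticulum and released again by the hydrolases Yeh1 and Tgl1 on the droplets and Yeh2 at the plasma membrane.

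Every log2 fold change and q printed here was taken from the authors' deposited table, where a gene has 1 value per comparison and none per library. No spread between replicates, count or expression level can therefore be set beside a value, and the depth is unknown. A gene is said to rise or fall where the authors' q was under 0.05. A q of 1 was taken as not tested. In that table OLE1 had a log2 fold change of -0.03 (q 0.925) in OLE1met250, so no fall was seen in the gene that was to be repressed. The treatment label of OLE1met250 reads 0 uM methionine although it is marked as repressed. OLE1 rose in spt23p90 (1.11), mga2p90 (2.18), ArgonST (0.72) and ArgonLT (3.20). MGA2 itself had a log2 fold change of 4.33 in OLE1met250 and 2.23 in ArgonLT. SPT23 was at 2.55 in spt23p90 and MGA2 at 3.73 in mga2p90, each with a q of 0.000304 and in the labelled direction. Methionine in OLE1met250, and the absence of doxycycline in spt23p90 and mga2p90, cannot be told apart from the intended change in these designs. The microfermenter is named here for ArgonLT and not for BY, so hypoxia and culture vessel cannot be told apart in ArgonLT against BY.

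The sterol genes moved most in ArgonLT, the microfermenter culture labelled as long-term hypoxia. Per the authors' deposited table, 8 of the 10 rose in ArgonLT and none fell, where 24.1% of all 5702 tested genes rose and 18.4% fell. The exceptions were YEH2 and TGL1. In OLE1met250, 5 rose (UPC2, PDR11, ARE1, ARE2 and YEH2) and YEH1 fell, against a background of 16.7% higher and 14.5% lower. In mga2p90, 4 rose (UPC2, SUT1, AUS1 and ARE2) and YEH1 fell, against 12.2% and 8.58%. In ArgonST, 4 of the 9 tested rose (UPC2, ECM22, SUT1 and ARE1) and none fell, against 4.86% and 2.41%. In spt23p90 ARE2 rose and ECM22 fell, and the 8 others did not pass, against 6.86% and 5.49%. The median log2 fold change of the tested members was 1.80 in ArgonLT, 0.59 in OLE1met250, 0.42 in mga2p90, 0.23 in ArgonST and 0.18 in spt23p90. Over all tested genes the same median was 0.10 in ArgonLT and between -0.04 and 0.05 in the other comparisons.

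**Figure D1:**
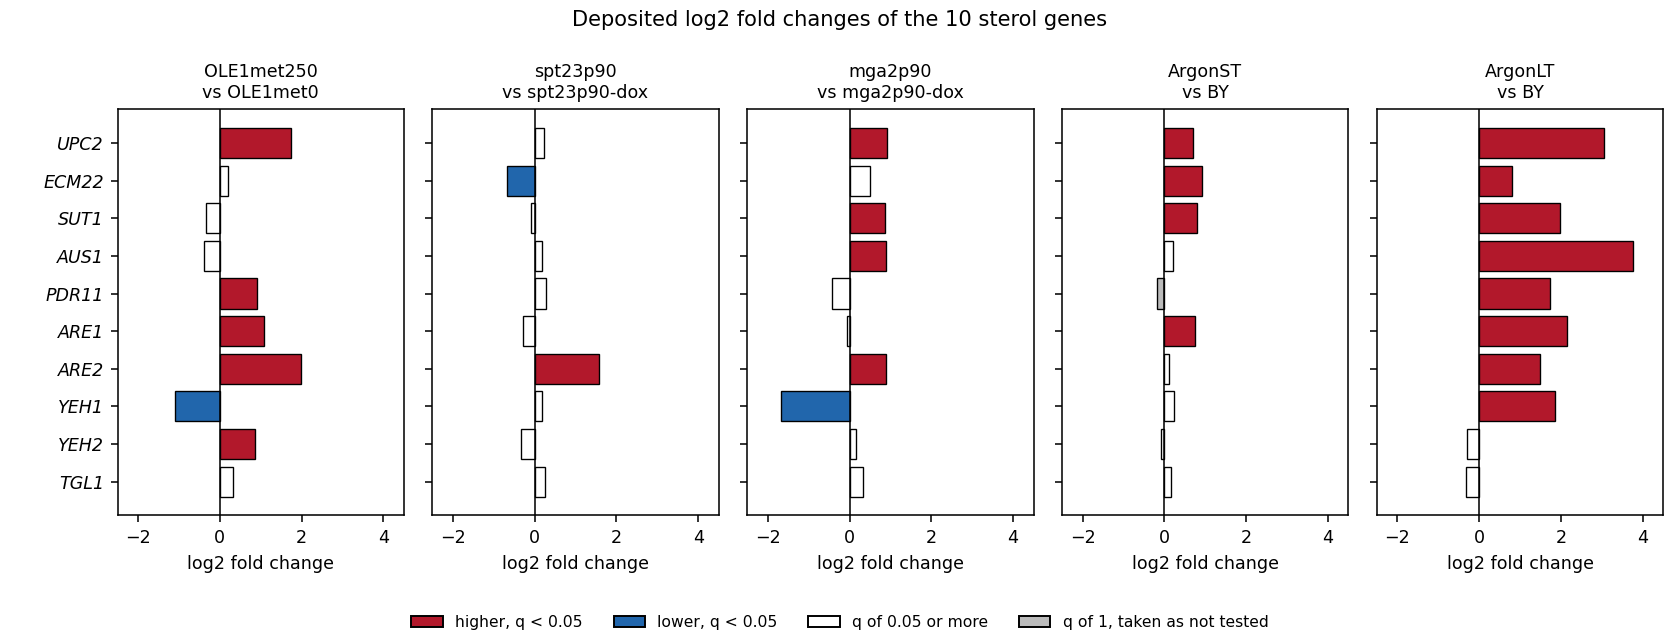
Deposited log2 fold change (x axis) of the 10 sterol genes in the 5 comparisons, red where the gene rose and blue where it fell at a q under 0.05, white where it did not pass and grey where it was not tested. In ArgonLT 8 of 10 bars are red, whereas in spt23p90 only ARE2 and ECM22 are coloured.

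Counted by gene, UPC2 and ARE2 rose in 4 of the 5 comparisons, SUT1 and ARE1 in 3, and AUS1 and PDR11 in 2. ECM22 rose in 2 and fell in 1. YEH1 rose in 1 and fell in 2. YEH2 rose in 1, and TGL1 passed in none, with values between -0.32 and 0.34.

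The 500 bases before each start codon, read from the RefSeq genome of build R64, were searched on both strands for short motifs of factors known to act on sterol and hypoxic genes. The stretches shown carry the rarer matches, with 40 bases on each side, 5′ to 3′ on the strand of the gene. Capitals mark the match. The AR1 element, TCGTTNAG, is an anaerobic response element through which Upc2 acts on hypoxic genes. It occurred upstream of 4 of the 10 genes (UPC2, ECM22, PDR11 and ARE1), and upstream of 5.12% of 6000 protein-coding genes.
UPC2: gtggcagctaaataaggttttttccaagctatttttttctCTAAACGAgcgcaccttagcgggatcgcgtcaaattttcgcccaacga
ECM22: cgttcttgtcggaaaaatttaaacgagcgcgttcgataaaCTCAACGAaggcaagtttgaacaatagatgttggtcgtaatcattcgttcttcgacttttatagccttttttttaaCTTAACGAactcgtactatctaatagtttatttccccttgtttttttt
PDR11: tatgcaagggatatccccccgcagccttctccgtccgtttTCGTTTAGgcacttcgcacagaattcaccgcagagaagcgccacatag
ARE1: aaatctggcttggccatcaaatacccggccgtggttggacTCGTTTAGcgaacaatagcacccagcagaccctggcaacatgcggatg
The stretches lie at chrIV:889351-889438 on the + strand, chrXII:602687-602850 on the - strand, chrIX:332825-332912 on the - strand and chrIII:211735-211822 on the + strand. In UPC2 and ECM22 the element stands on the strand opposite to the gene, so that the capitals show its reverse complement. UPC2, PDR11 and ARE1 hold the same form, TCGTTTAG, at positions -360, -430 and -154 from the start codon. The matches of ECM22, TCGTTGAG and TCGTTAAG, have a purine at the base written N, where the element is usually given with a pyrimidine. With C or T required there, 3 of the 10 genes and 3.18% of all had a match. All 4 of these genes rose in ArgonLT, as did 4 of the 6 without a match.

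The core of the sterol regulatory element bound by Upc2 and Ecm22, TCGTATA, was found before YEH1 alone among the 10, and before 7.0% of all genes. The core of the Pdr1 and Pdr3 element, CCGCGG, was found before ARE2 alone, and before 3.17% of all genes.
YEH1: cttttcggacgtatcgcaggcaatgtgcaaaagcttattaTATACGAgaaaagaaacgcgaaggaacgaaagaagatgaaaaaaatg
ARE2: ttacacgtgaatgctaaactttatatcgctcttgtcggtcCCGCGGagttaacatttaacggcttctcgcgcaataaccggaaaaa
These lie at chrXII:125279-125365 and chrXIV:665097-665182, both on the + strand, with the matches at -215 and -202 from the start codon. The YEH1 match stands on the opposite strand. The Rox1 core ATTGTT was common, with matches before 8 of the 10 genes and before 48.9% of all, and the Hap1 site was found before none of the 10 and 0.35% of all. A match of letters is a description and does not show binding. AUS1, the gene with the highest fold change in ArgonLT, had only a Rox1 core in this window, at -497.

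**Figure D2:**
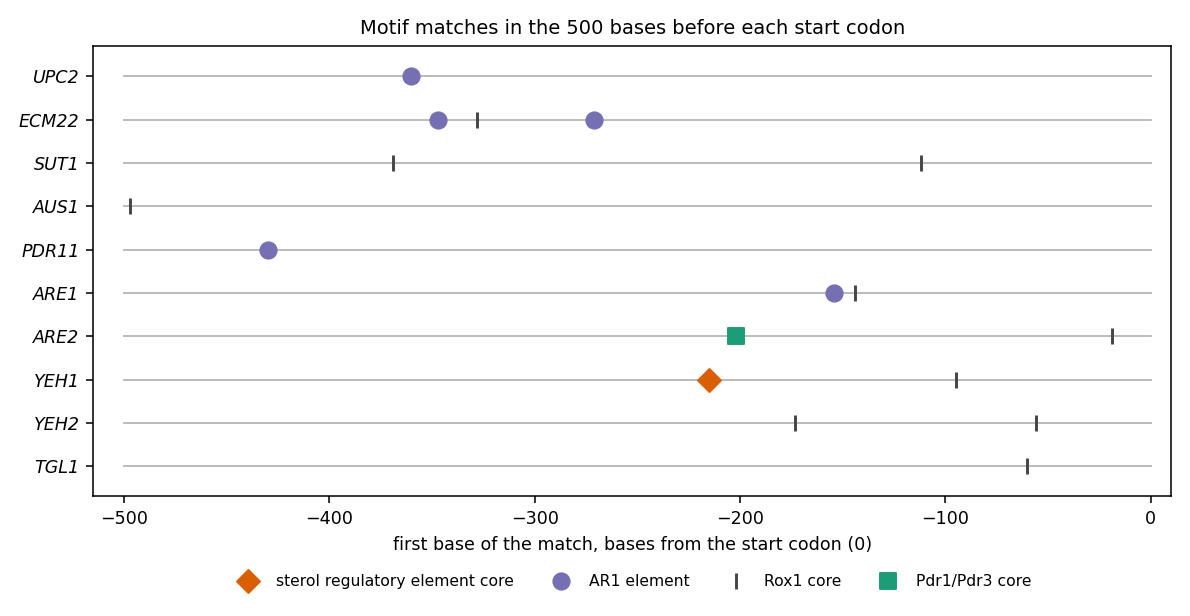
Positions of motif matches in the 500 bases before the start codon (x axis, in bases) of each of the 10 genes. AR1 elements (circles) stand before UPC2, ECM22, PDR11 and ARE1, the sterol regulatory element core (diamond) before YEH1 and the Pdr1 and Pdr3 core (square) before ARE2.

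Of the regulators, UPC2 (YDR213W, chromosome IV, 889751 to 892492, 1 exon) had the largest change in ArgonLT, OLE1met250 and mga2p90, and the smallest in ArgonST. UPC2 was 8.30-fold higher in ArgonLT in the authors' deposited table (log2 3.05, q 0.000304), above 97.8% of tested genes with a finite value. It was 3.31-fold higher in OLE1met250 (log2 1.73, q 0.000304), 1.88-fold in mga2p90 (log2 0.91, q 0.00107) and 1.62-fold in ArgonST (log2 0.70, q 0.0218). In spt23p90 it was at log2 0.22 and did not pass (q 0.473). The gene for the sterol sensor thus rose in every comparison except that of the SPT23 fragment, though ArgonST and ArgonLT share the BY libraries.

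ECM22 (YLR228C, chromosome XII, 600019 to 602463, 1 exon) encodes the close relative of Upc2 that shares its binding site. The deposited values of ECM22 stayed within a narrow range, from -0.68 to 0.92. It rose 1.89-fold in ArgonST (log2 0.92, q 0.00239) and 1.74-fold in ArgonLT (log2 0.80, q 0.00936), and in spt23p90 it was 1.60-fold lower (log2 -0.68, q 0.0145). In mga2p90 it stood at 0.50 with a q of 0.0754, and in OLE1met250 at 0.20 with a q of 0.506. UPC2 exceeded ECM22 by 2.25 on the log2 scale in ArgonLT and by 1.53 in OLE1met250, and lay 0.22 below it in ArgonST. The table carries no error with which these differences between genes could be tested.

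SUT1 (YGL162W, chromosome VII, 198138 to 199037, 1 exon) encodes a zinc cluster factor that promotes sterol uptake. SUT1 was 3.91-fold higher in ArgonLT in the authors' deposited table (log2 1.97, q 0.000304). It rose by 0.86 in mga2p90 (q 0.0264) and by 0.80 in ArgonST (q 0.0411). Its values of -0.34 in OLE1met250 (q 0.534) and -0.09 in spt23p90 (q 0.827) did not pass. All 3 regulator genes rose in ArgonST and in ArgonLT, where 4.86% and 24.1% of all tested genes rose. Both were set against the same BY libraries, so the rises of a gene in them are not independent.

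The importer genes both rose in ArgonLT, and in mga2p90 and OLE1met250 only the one or the other passed. AUS1 (YOR011W, chromosome XV, 349679 to 353863, 1 exon) had the largest change of the 10 genes. It was 13.6-fold higher in ArgonLT per the authors' deposited table (log2 3.77, q 0.000304). Of the tested genes with a finite value in ArgonLT, 98.9% lay below it. PDR11 (YIL013C, chromosome IX, 328207 to 332442, 1 exon) was 3.34-fold higher there (log2 1.74, q 0.000304). In mga2p90 AUS1 rose 1.86-fold (log2 0.90, q 0.000304), while PDR11 was at -0.42 with a q of 0.223. In OLE1met250 the order was the other way round, with PDR11 1.87-fold higher (log2 0.90, q 0.00279) and AUS1 at -0.38 with a q of 0.216. AUS1 minus PDR11 came to 2.03 on the log2 scale in ArgonLT, 1.32 in mga2p90 and -1.29 in OLE1met250, differences for which no test was possible. In spt23p90 AUS1 stood at 0.18 and PDR11 at 0.28, with neither past the threshold. After 90 min of argon AUS1 was at 0.20 (q 0.509), and PDR11, at -0.19 with a q of 1, was taken as not tested.

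Both importers lie beside genes of the TIR family, which encode cell wall mannoproteins of anaerobic cells. These neighbours were named after their values had been seen. TIR2 is the next gene upstream of AUS1, 2728 bases away and on the opposite strand, and TIR4 follows it. TIR3 lies 1284 bases from PDR11, with the ORF YIL012W between them. In the authors' deposited table TIR2 was at 6.54, TIR4 at 7.37 and TIR3 at 5.57 in ArgonLT, each with a q of 0.000304. TIR2 and TIR3 had also risen in ArgonST, by 1.35 and 1.16, where neither importer was called. TIR4 rose there too, by 0.99. In mga2p90 TIR2 rose by 1.88 along with AUS1, while TIR4 was at -0.67 (q 0.0937). In OLE1met250 TIR3 rose by 1.84 along with PDR11, and TIR2 by 1.00 and TIR4 by 3.62 where AUS1 did not pass.

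Of the acyltransferase genes, ARE2 (YNR019W, chromosome XIV, 665339 to 667267, 1 exon) encodes the enzyme that makes most steryl ester in aerated cells, and it rose in 4 comparisons. In the authors' deposited table ARE2 was 3.98-fold higher in OLE1met250 (log2 1.99), 2.97-fold in spt23p90 (log2 1.57), 2.80-fold in ArgonLT (log2 1.49) and 1.85-fold in mga2p90 (log2 0.89), each with a q of 0.000304. Among tested genes with a finite value, ARE2 was above 97.8% in OLE1met250 and above 97.9% in spt23p90. After 90 min of argon it stood at 0.12 (q 0.699). ARE2 was the single member that rose in all of OLE1met250, spt23p90 and mga2p90.

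ARE1 (YCR048W, chromosome III, 211929 to 213761, 1 exon) encodes the other acyltransferase. According to the authors' deposited table, ARE1 was 4.45-fold higher in ArgonLT (log2 2.16, q 0.000304), 2.11-fold in OLE1met250 (log2 1.08, q 0.000304) and 1.68-fold in ArgonST (log2 0.75, q 0.00721). With the fragments it did not pass, at -0.29 in spt23p90 (q 0.345) and -0.05 in mga2p90 (q 0.877). ARE1 minus ARE2 was -1.86 on the log2 scale in spt23p90, -0.94 in mga2p90 and -0.91 in OLE1met250, against 0.62 in ArgonST and 0.67 in ArgonLT. The difference, which could not be tested, was thus below 0 in OLE1met250, spt23p90 and mga2p90. It was above 0 in ArgonST and ArgonLT, which share the BY libraries.

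ARE1 is the only member that overlaps another annotated gene. Its last 298 bases are shared with the ORF YCR050C on the other strand, and the deposited table gives ARE1, YCR049C and YCR050C a single locus. YCR050C was at 2.33 in ArgonLT (q 0.0114) and at 1.19 in OLE1met250 (q 0.0753). Whether counting used strand is not given in the sources at hand, so reads of these genes may not be told apart.

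Among the hydrolases YEH1 (YLL012W, chromosome XII, 125534 to 127255, 1 exon) passed in 3 comparisons, falling in 2 and rising in 1. In the authors' deposited table YEH1 was 3.19-fold lower in mga2p90 (log2 -1.67, q 0.000304), where only 0.558% of finite tested values were lower. It was 2.14-fold lower in OLE1met250 (log2 -1.10, q 0.00339) and 3.61-fold higher in ArgonLT (log2 1.85, q 0.000304). In spt23p90 it was at 0.18 and in ArgonST at 0.23, with q values of 0.610 and 0.501. YEH1 and ARE2, for release and storage of the same ester, thus changed in opposite directions in mga2p90 and OLE1met250, and both rose in ArgonLT. The other hydrolase genes did not fall with YEH1. In OLE1met250 YEH2 rose by 0.86, as ARE2 did, and TGL1 was at 0.32 without passing. In mga2p90 YEH2 (0.16), TGL1 (0.34) and the acyltransferase gene ARE1 (-0.05) did not pass.

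YEH2 (YLR020C, chromosome XII, 181789 to 183405, 1 exon) rose 1.82-fold in OLE1met250 per the authors' deposited table (log2 0.86, q 0.00339). Its other values lay between -0.35 and 0.16 and did not pass. TGL1 (YKL140W, chromosome XI, 180779 to 182425, 1 exon) had values of 0.32, 0.25, 0.34 and 0.15 in OLE1met250, spt23p90, mga2p90 and ArgonST and -0.32 in ArgonLT, with q values from 0.245 to 0.633. YEH1 minus YEH2 was 2.14 on the log2 scale in ArgonLT and -1.83 in mga2p90, and YEH1 minus TGL1 was 2.17 and -2.01, again without a test.

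Genes of one role are similar in sequence, which could lead reads to be split between them. Over aligned coding bases the identity was 70.1% for AUS1 and PDR11, 67.8% for YEH1 and YEH2, 67.3% for UPC2 and ECM22 and 62.7% for ARE1 and ARE2. It was 60.9% for YEH1 and TGL1 and 60.3% for YEH2 and TGL1. The longest identical run, sought at any position of the coding sequences, was 29 bases, in UPC2 and ECM22. Splitting of reads was not tested. The sources used here do not give the read length.

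**Figure D3:**
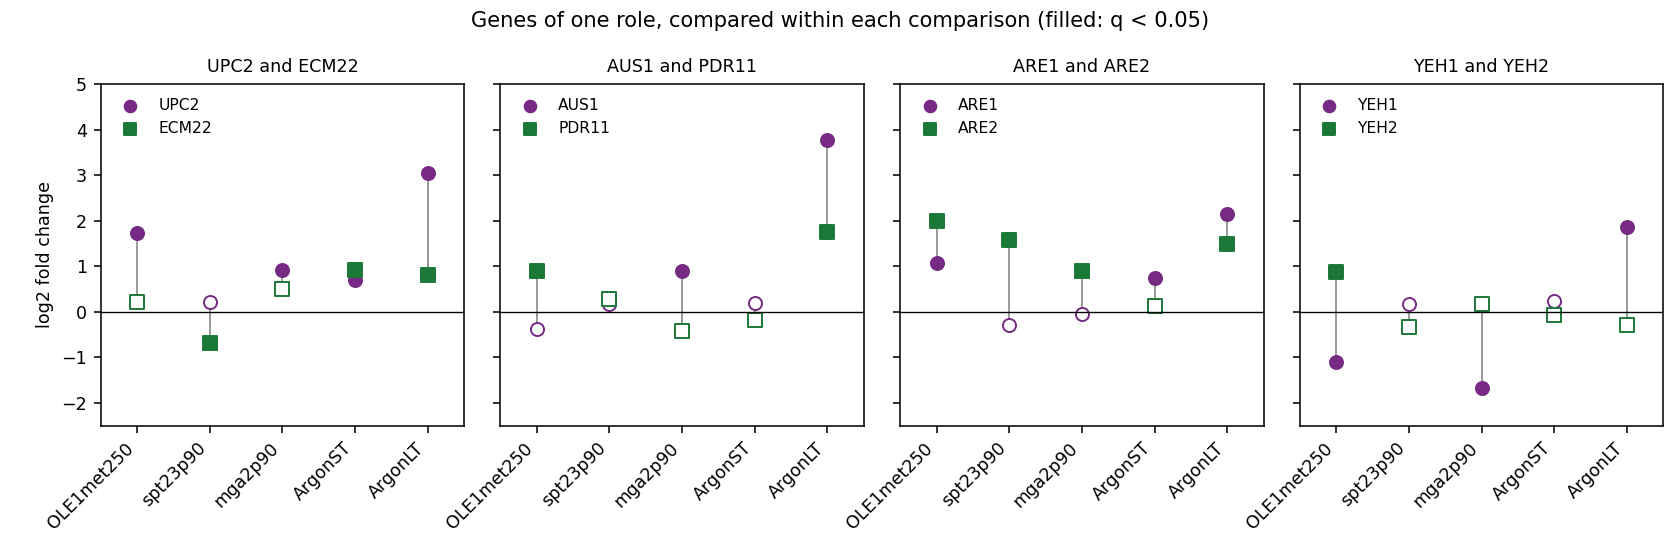
Deposited log2 fold change (y axis) of the members of 4 gene pairs in the 5 comparisons, with filled symbols where the q was under 0.05. AUS1 lies above PDR11 in mga2p90 and ArgonLT and below it in OLE1met250. ARE2 lies above ARE1 in OLE1met250, spt23p90 and mga2p90 and below it in ArgonST and ArgonLT. PDR11 in ArgonST, taken as not tested, has an open symbol.

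ArgonST and ArgonLT were set against the same BY libraries, so their values are given side by side and their likeness is not read as a result. The importers, ARE2 and YEH1 stood between -0.19 and 0.23 in ArgonST and between 1.49 and 3.77 in ArgonLT in the authors' deposited table. The lowest of these, -0.19, is that of PDR11, taken as not tested in ArgonST. ArgonLT minus ArgonST, in which BY cancels, was 3.57 for AUS1, 2.36 for UPC2, 1.93 for PDR11, 1.62 for YEH1, 1.41 for ARE1, 1.36 for ARE2 and 1.17 for SUT1. For ECM22 it was -0.12. YEH2 and TGL1 had differences of -0.22 and -0.47. These differences were not tested. The labels describe ArgonST as a time under argon and ArgonLT as a microfermenter culture, so the length of hypoxia and the culture vessel cannot be told apart.

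**Figure D4:**
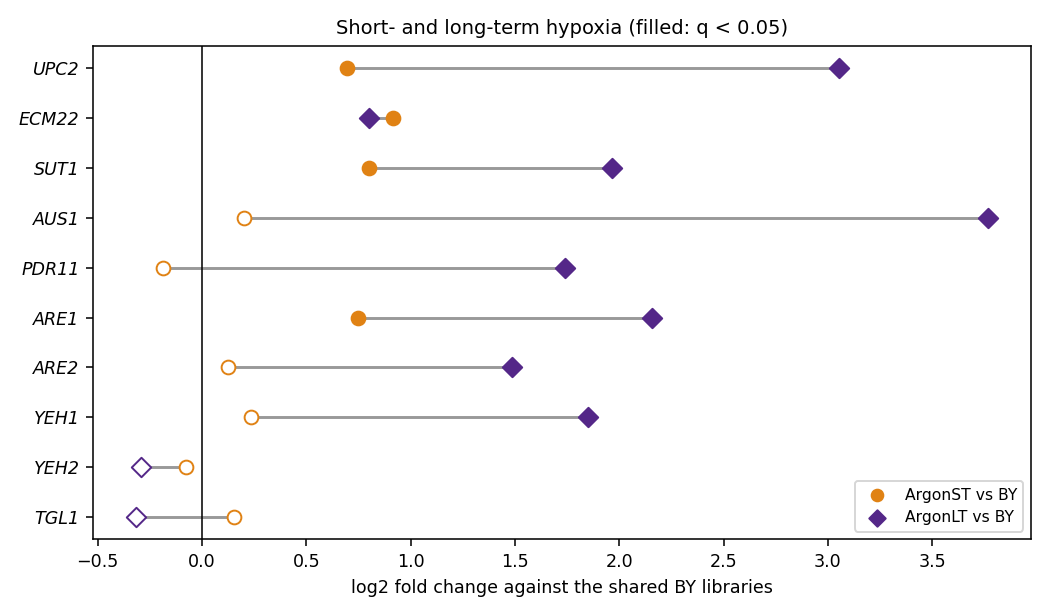
Deposited log2 fold change against BY (x axis) of the 10 genes in ArgonST (circles) and ArgonLT (diamonds), filled where the q was under 0.05. The 3 regulators and ARE1 have filled circles, and AUS1 shows the widest gap, from 0.20 to 3.77. The open circle of PDR11 is a value taken as not tested.

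Of 26 genes of ergosterol synthesis, the pathway that Upc2 and Ecm22 control, 25 rose in ArgonLT in the authors' deposited table and none fell, beside 24.1% and 18.4% of all tested genes. The list median was 1.24. The largest rises were those of ERG28, a scaffold of the C-4 demethylation complex, at 3.31, of ERG5, the C-22 desaturase, at 2.56, and of the electron carrier gene CYB5 at 2.17. In ArgonST 8 rose and none fell, beside 4.86% and 2.41% of all. They were led by ERG28 at 0.97, ERG25 at 0.95 and ERG11, the lanosterol demethylase, at 0.89. The list split in mga2p90, with 6 higher and 8 lower, beside 12.2% and 8.58% of all. It also split in OLE1met250, with 6 higher and 6 lower, beside 16.7% and 14.5% of all. ERG19 and ERG10, of the mevalonate branch, were at 2.10 and 1.67 in mga2p90 and ERG3, the C-5 desaturase, at -1.78, and in OLE1met250 the leading genes were ERG19 at 1.75, ERG10 at 1.66 and ERG13 at 1.48. In spt23p90 ERG5 alone rose, by 0.52 (q 0.0477), and none fell, beside 6.86% and 5.49% of all. UPC2 rose in ArgonLT, where 25 of these genes passed, in ArgonST, where 18 did not, and in OLE1met250 and mga2p90, where the list split.

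The anaerobic cell wall genes, a list of 8 known targets of Upc2, had members that rose in each of the 5 comparisons and none that fell. Of all tested genes, between 2.41% and 18.4% fell in these comparisons. By the authors' deposited table, 6 of 7 tested rose in OLE1met250, beside 16.7% of all, with TIR4 at 3.62, DAN1 at 3.27 and DAN4 at 1.98. In ArgonLT 6 of 8 rose, beside 24.1% of all. TIR4 was at 7.37, TIR1 at 6.85 and TIR2 at 6.54 there, and DAN3 rose without a finite value. DAN1 and DAN2 had higher values, 9.88 and 9.30, but did not pass (q 0.164 each). In ArgonST 4 of 6 rose, beside 4.86% of all, led by TIR1 at 4.06. In spt23p90 TIR1 (2.20) and DAN4 (1.03) rose among 6, beside 6.86% of all. In mga2p90 DAN4 (2.19) and TIR2 (1.88) rose among 6, beside 12.2% of all.

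Genes that move sterol inside or out of the cell, 21 in all, were called in both directions. In every comparison the share that rose lay above that of all tested genes, though only barely in ArgonST. The share that fell lay above that of all tested genes in ArgonLT, spt23p90 and ArgonST and below it in OLE1met250 and mga2p90. These differences were not tested. In ArgonLT 7 rose and 5 fell in the authors' deposited table, beside 24.1% and 18.4% of all. HES1, of the oxysterol-binding protein family, was at 7.27 (q 0.00509), PRY1, for a secreted sterol-binding protein, at 2.28 and LAM5, of the sterol transfer proteins at membrane contacts, at 2.21. In OLE1met250 6 rose and 2 fell, beside 16.7% and 14.5% of all, with HES1 at 5.38, OSH6 at 1.20 and SWH1 at 1.08. In mga2p90 5 rose and 1 fell, beside 12.2% and 8.58% of all. OSH6 was at 1.76 and LAM5 at 1.36, and ATF2, the acetyltransferase that marks sterols for export, fell by 1.17. HES1 had a higher value there, 6.58, but did not pass (q 0.231). In spt23p90 2 rose (HES1, 1.42, and PRY1, 1.25) and 3 fell, OSH2 the furthest at -0.84, beside 6.86% and 5.49% of all. In ArgonST 1 of 20 rose, ATF2 by 0.63, and 1 fell, OSH2 at -0.65, beside 4.86% and 2.41% of all.

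The 12 genes of lipid droplets and triacylglycerol, the other neutral lipid of the droplets, were called about as often as all tested genes in ArgonLT and OLE1met250, with both directions counted together. In ArgonLT 4 rose and 1 fell in the authors' deposited table, beside 24.1% and 18.4% of all tested genes, with PAH1, the phosphatidate phosphatase, at 1.63, LDH1 at 1.07 and SEI1, the yeast seipin, at -1.07. In OLE1met250 2 rose and 2 fell, beside 16.7% and 14.5% of all, with PAH1 at 1.04 and the triacylglycerol lipase gene TGL3 at -0.81. In mga2p90 only PAH1 rose, by 1.20, and only LRO1, an acyltransferase that makes triacylglycerol, fell, by 1.21, beside 12.2% and 8.58% of all. PET10, a droplet protein gene, alone rose in spt23p90, by 0.89, beside 6.86% of all. In ArgonST LDH1 and AYR1 rose, by 1.01 and 0.61, beside 4.86% of all.

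Among 12 other regulators of oxygen, haem and drug response, 5 rose and 1 fell in ArgonLT in the authors' deposited table, beside 24.1% and 18.4% of all tested genes. The furthest were ROX1, the hypoxic repressor, at 2.24, MGA2 at 2.23 and HAP1 at 1.86. In ArgonST 3 rose and none fell, beside 4.86% and 2.41% of all. They were SUT2, the relative of SUT1, at 0.60 (q 0.0430), HAP1 at 0.61 and SPT23 at 0.57. In OLE1met250 4 rose and 1 fell, beside 16.7% and 14.5% of all. Among those that rose were HAP1 at 1.54, PDR3 at 1.10 and MGA2. In spt23p90 2 rose and 2 fell, beside 6.86% and 5.49% of all, a count that holds SPT23 itself, MGA2 at -1.46 and STB5 at -1.19. In mga2p90 only MGA2 itself rose and only TUP1 fell, by 0.81, beside 12.2% and 8.58% of all.

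Of 9 drug resistance ABC transporters, relatives of AUS1 and PDR11 in the same superfamily, 6 of 8 tested rose in ArgonLT and none fell in the authors' deposited table. This stood beside 24.1% and 18.4% of all tested genes. PDR15 was at 1.79, YOR1 at 1.76 and YOL075C at 1.63. In OLE1met250 5 rose and 1 fell, beside 16.7% and 14.5% of all, with PDR5 at 2.09, PDR10 at 1.54 and PDR18 at 1.39. In mga2p90 5 rose and 2 fell, beside 12.2% and 8.58% of all, with PDR12 at 1.81, PDR18 at 1.66 and SNQ2 at -1.19. In spt23p90 only PDR12 rose, by 1.22, and only ADP1 fell, by 0.55, beside 6.86% and 5.49% of all. No transporter of this list was called among 8 tested in ArgonST by the authors' q, and no unadjusted p was at hand. Only 4.86% of all tested genes rose there and 2.41% fell, so the lack of calls among so few genes is not read as a result.

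**Figure D5:**
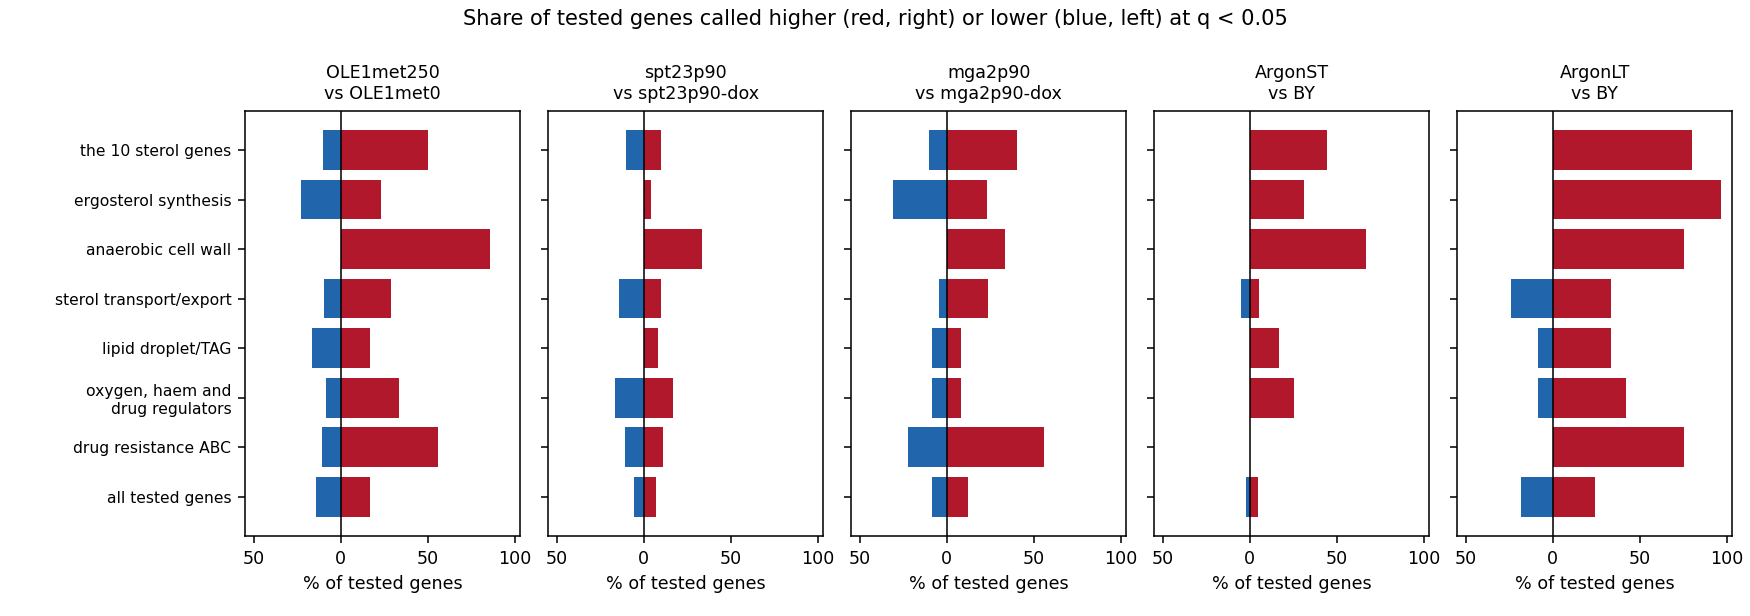
Share of tested genes called higher (red, to the right) and lower (blue, to the left) at a q under 0.05 for the 10 sterol genes, 6 related lists and all tested genes, in each comparison. In ArgonLT the red bars of the 10 sterol genes (8 of 10) and of all 6 related lists, from 4 of 12 lipid droplet genes to 25 of 26 ergosterol genes, extend past that of all tested genes at 24.1%.

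Likeness of pattern was measured as the Euclidean distance between the 5 deposited log2 fold changes of a member and those of each of 5252 genes tested in all comparisons with finite values. The nearest gene to SUT1 was KTI11, at a distance of 0.10, and the nearest to YEH2 was PUF4, at 0.18. The nearest to AUS1 were MCH5 (0.77), MET13 (0.82) and YJL213W (0.91). The nearest to UPC2 were YDR034C-A (0.77), TPO4 (0.80) and EGO4 (0.95), and those to ARE2 were HPF1 (0.70), YGR035W-A (0.73) and SIT1 (0.86). For YEH1 the nearest was ERG3, at 0.94, which in the authors' deposited table was at -1.78 in mga2p90 and 1.45 in ArgonLT, beside -1.67 and 1.85 for YEH1. The genes were less alike in OLE1met250, with ERG3 at -0.39 (q 0.242) where YEH1 fell, and in ArgonST, where ERG3 rose by 0.69 (q 0.0273) and YEH1 did not pass. For the other members the nearest were SIR2 to TGL1 (0.27), CSE4 to PDR11 (0.41), ITT1 to ECM22 (0.54) and GYP7 to ARE1 (0.63). With 5 values per gene, of which 2 share a control, this is a description. No other member was among the 3 nearest genes of a member. PDR11, taken as not tested in ArgonST, was not among the genes searched, so it could not have been one of them.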

How the data were processed

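Per the submitters' processing notes, Cuffdiff 2.2.1, TopHat2 2.0.14 and Trimmomatic 0.33 were used with build R64, with settings and annotation not given in the sources at hand. Per the file headers, the authors' deposited table holds log2 differential expression, read as the first named group over the second, and q values, p-values adjusted for false discovery. After 4 emptied lines it lists 6709 genes and 0 columns of per-sample values. The submitters call the replicates biological. Depth and errors are unknown, and no test was run here. Genes at a q of 1 were taken as not tested, and values of 10 or more in size as not finite. Shares of tested genes above or below the value of a member leave out values that were not finite. Of the genes, 6022 matched RefSeq R64 by systematic name, and positions are 1-based RefSeq ones.

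The members, 6 related lists and motifs were chosen with earlier results of these data known. Named genes are the members, up to 3 genes per list and comparison past the threshold with the largest finite change, the 3 nearest genes per member, the manipulated genes and neighbours of ARE1 and the importers. ERG19, PET10, DAN2 and DAN3 are MVD1, PLN1, PAU23 and PAU24 in RefSeq. Coding sequences were aligned with Biopython 1.88. The steps were tested on simulated data. Alternatives were other q thresholds, a minimum change, centring and other promoter windows.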

Additional observations from a re-analysis of the deposited data

How the results depend on the processing

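Subtracting the median of tested genes (0.10 in ArgonLT) changed the sign of none of the 50 member values, and counting untested genes changed no number of calls. At a q under 0.01 the members called were 1 in spt23p90 (without ECM22) and 2 in ArgonST (without UPC2 and SUT1), and mga2p90 lost SUT1, while OLE1met250 and ArgonLT lost none. At a q under 0.10 ECM22 was gained in mga2p90. With a change of at least 2-fold as well, the members called were 0 in ArgonST, 1 in mga2p90 (YEH1) and 1 in spt23p90 (ARE2), OLE1met250 lost PDR11 and YEH2, and ArgonLT lost ECM22. Among all tested genes a q under 0.01 called 1271 of 6065 in OLE1met250, 342 of 5626 in spt23p90 and 628 of 5606 in mga2p90. It called 156 of 5474 in ArgonST and 1800 of 5702 in ArgonLT. At a q under 0.10 the calls were 2302 in OLE1met250, 1008 in spt23p90, 1591 in mga2p90, 626 in ArgonST and 2781 in ArgonLT. The 2-fold minimum gave 937 in OLE1met250, 271 in spt23p90, 456 in mga2p90, 115 in ArgonST and 1486 in ArgonLT. These losses follow from the stricter rules. AR1 matches stood before 1 member (ARE1) and 2.73% of all genes from 250 bases before to 50 after the start codon, and before 4 members and 7.92% in 800 bases, windows chosen after seeing the data. No paired analysis was possible because the deposited table has no values per library, and replicates could not be left out for the same reason.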
